A study of Mus musculus with 12 samples.

Results

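The megakaryocyte and platelet genes were 10 genes whose products are made in megakaryocytes and carried by platelets: Pf4, Ppbp, Gp1ba, Gp1bb, Gp5, Gp9, Gp6, Vwf, F2rl2 and Treml1. Their peaks were the rows of the master peak-list whose assigned gene has one of these names, a rule that used no measured value. It returned 49 of the 84243 peaks, for 10 of 20958 protein-coding genes. The list came from ATAC-seq, an assay in which a transposase cuts DNA that is not wrapped in nucleosomes and tags the cut ends for sequencing. The 12 samples were 2 replicates each of 6 sorted cell types: hematopoietic stem cells (HSCs), megakaryocyte progenitors (MkPs), erythroid progenitors (EPs), granulocyte/macrophages (GMs) and B cells, all labelled bone marrow, and T cells, labelled thymus. All came from wild-type C57BL/6 mice aged 8 to 12 weeks, with no treatment or allele in any group, so that the groups differed in cell type and, for T cells, in tissue. The peaks of all 6 cell types were pooled into 1 list with no values per sample. It therefore holds no depth and no replicate error, it leaves the cell type of each peak open, and the sorted populations could not be checked against their markers. A peak below is a place that was open in at least 1 of the 6 cell types, MkPs or not, and the intervals given are 95% Wilson intervals, which cover counting error only.

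Megakaryocytes are large, polyploid bone marrow cells that arise from HSCs and shed platelets into the blood. Platelets stop bleeding by binding von Willebrand factor and collagen at an injured vessel wall, by responding to thrombin and by releasing granules. The genes for this equipment are known targets of GATA1, which binds GATA sequences, and of the ETS proteins FLI1, ERG and GABPA, which bind sequences with a GGAA core. RUNX1, NF-E2 and TAL1, which bind RUNX, NF-E2 and E-box sequences, are other known regulators of the lineage.

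These consensus strings were searched on both strands of each peak without mismatches. For GATA these were AGATAA or TGATAA. For ETS proteins they were AGGAAG or CGGAAG. The RUNX string was TGTGGT. The NF-E2 string, shared with AP-1, was TGAGTCA. The E-box was CAGNTG, where N is any base. The string for KLF and SP proteins was CCNCACCC. A match describes letters and not binding, and no match says only that these letters are not in the window. Of the 7 promoter peaks of the 10 genes, defined as peaks centred within 500 bp of a transcription start site (TSS), 5 held both a GATA and an ETS match. The 4 of them with an entry in the RefSeq promoter table are printed here, since the spacing of the matches can be read from them. Each runs 5′ to 3′ on the strand of the gene and ends at the base before the RefSeq TSS. GATA and ETS matches are in capitals. A GATA match of the other strand reads TTATCA or TTATCT, and an ETS match of the other strand reads CTTCCT. Positions are on mm10 (GRCm38), with sequence from RefSeq GRCm38.p6: Pf4 at chr5:90772217-90772434 (plus strand), Gp1ba at chr11:70638872-70639121 (plus), Gp5 at chr16:30310782-30311031 (minus) and F2rl2 at chr13:95696709-95696919 (plus).
Pf4: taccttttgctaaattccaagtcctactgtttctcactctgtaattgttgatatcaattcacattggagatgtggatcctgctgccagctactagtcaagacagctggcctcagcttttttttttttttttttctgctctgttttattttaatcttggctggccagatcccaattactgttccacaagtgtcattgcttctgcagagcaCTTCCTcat
Gp1ba: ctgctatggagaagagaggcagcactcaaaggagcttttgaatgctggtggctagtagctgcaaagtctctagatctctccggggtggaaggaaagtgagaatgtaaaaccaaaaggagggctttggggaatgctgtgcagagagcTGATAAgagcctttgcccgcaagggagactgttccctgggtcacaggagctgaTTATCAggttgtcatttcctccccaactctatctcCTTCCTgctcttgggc
Gp5: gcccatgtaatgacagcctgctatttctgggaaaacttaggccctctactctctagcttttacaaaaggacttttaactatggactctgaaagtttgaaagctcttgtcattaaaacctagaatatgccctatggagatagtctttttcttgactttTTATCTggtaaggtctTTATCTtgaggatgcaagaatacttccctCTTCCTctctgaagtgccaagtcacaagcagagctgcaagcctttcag
F2rl2: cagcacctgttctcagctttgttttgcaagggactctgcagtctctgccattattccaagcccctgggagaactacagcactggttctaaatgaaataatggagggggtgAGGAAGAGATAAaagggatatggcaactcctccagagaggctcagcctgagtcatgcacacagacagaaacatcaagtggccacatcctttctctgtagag

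The ETS match of Pf4 lies just before its TSS, and the GATA match nearest to it lies after the TSS, in the 5′ untranslated part of exon 1. That site is shown with 12 bases on either side, from chr5:90772459-90772488 (plus strand).
Pf4 site: ggcaggcagtgaAGATAAaacgtgcttggg

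The other 2 promoter peaks with sequence shown here, those of Gp9 and Gp6, lacked the pair. The Gp9 stretch (chr6:87777916-87778069, plus strand) has an ETS match and, in capitals too, the shorter string GATAA preceded by a G. The Gp6 stretch (chr7:4397852-4397994, minus strand) has a GATA match alone.
Gp9: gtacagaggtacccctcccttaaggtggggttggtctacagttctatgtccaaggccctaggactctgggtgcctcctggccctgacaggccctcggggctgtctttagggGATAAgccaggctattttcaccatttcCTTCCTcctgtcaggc
Gp6: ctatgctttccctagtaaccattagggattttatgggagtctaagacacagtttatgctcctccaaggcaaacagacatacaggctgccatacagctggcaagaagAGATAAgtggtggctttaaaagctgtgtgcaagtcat

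Treml1 had no promoter peak, and its single peak is shown for the GATA and ETS matches in intron 2 (chr17:48360588-48360887, plus strand). F2rl2 had 1 non-promoter peak with 4 GATA matches, more GATA and ETS matches together than in any of its other non-promoter peaks, and 3 of the 4 are in the stretch shown (chr13:95671581-95671785, plus strand).
Treml1: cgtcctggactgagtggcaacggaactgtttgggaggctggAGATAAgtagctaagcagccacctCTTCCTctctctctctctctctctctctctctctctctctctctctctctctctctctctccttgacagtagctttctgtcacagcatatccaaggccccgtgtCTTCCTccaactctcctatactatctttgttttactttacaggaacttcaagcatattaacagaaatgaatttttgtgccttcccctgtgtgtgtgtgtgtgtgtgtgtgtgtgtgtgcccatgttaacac
F2rl2 upstream: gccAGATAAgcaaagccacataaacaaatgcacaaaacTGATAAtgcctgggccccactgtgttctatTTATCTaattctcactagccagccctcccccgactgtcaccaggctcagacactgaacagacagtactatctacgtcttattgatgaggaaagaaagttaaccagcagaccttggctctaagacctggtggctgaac

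Promoter peaks were found at 7 of the 10 genes (70%, interval 39.7 to 89.2%), and 54.9% of all protein-coding genes had one (interval 54.3 to 55.6%). The 7 were Pf4, Gp1ba, Gp5, Gp9, Gp6, Vwf and F2rl2, each with exactly 1. The interval of the 10 genes includes the share of all genes, so the difference is within counting error. The other 3, Ppbp, Gp1bb and Treml1, had peaks, but none centred within 500 bp of the TSS. No gene of the 10 was without a peak, and 22.6% of protein-coding genes had none. With only 10 genes, counting error is wide, and this difference was not tested. Beside the 7 promoter peaks stood 42 non-promoter peaks, so promoters took 14.3% of the peaks of the 10 genes (interval 7.1 to 26.7%) and 15.6% of the list (15.4 to 15.9%).

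**Figure D1:**
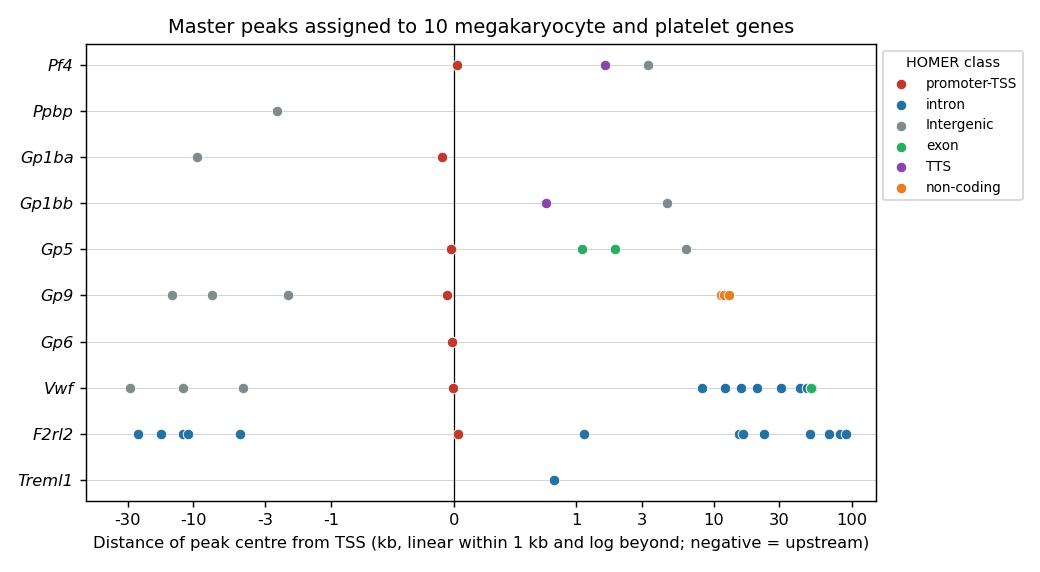
Position of each of the 49 peaks (points) relative to the TSS of its gene, in kb, linear within 1 kb and logarithmic beyond; negative is upstream in the direction of the gene. Rows are the 10 genes and colours the annotation classes of HOMER. Pf4, Gp1ba, Gp5, Gp9, Gp6, Vwf and F2rl2 have a promoter peak at the vertical line, Ppbp, Gp1bb and Treml1 do not, and Vwf and F2rl2 with 14 peaks each hold 28 of the 49.

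The number of peaks per gene was uneven. Vwf and F2rl2 had 14 each and held 57.1% of all 49 between them, and only 3.92% of protein-coding genes had 14 or more. Gp9 followed with 7, Gp5 with 4 and Pf4 with 3. Gp1ba and Gp1bb had 2 each, and Ppbp, Gp6 and Treml1 had 1 each. The median was 2.5 peaks (quartiles 1.25 to 6.25), against 2 over all protein-coding genes (1 to 4) and 3 over those with any peak. Most of the 10 genes are short, with a median length of 3.98 kb (all protein-coding genes, 16.1 kb). The stretch nearer to their TSS than to that of any other protein-coding gene had a median of 36.1 kb (49.6 kb). Its quartiles were 15.8 to 53.6 kb (23.6 to 116 kb), and at Gp5, Gp6, Vwf and F2rl2 it was longer than the median of all genes. Per 100 kb of that stretch the 10 genes had a median of 12.3 peaks (quartiles 8.03 to 15) and all protein-coding genes 4.48 (0.902 to 9.23). Protein-coding genes with any peak, as all 10 have, had a median of 6.14 (3.18 to 10.8). The gene with the highest density was Pf4, at 34.1 peaks per 100 kb, above 99.2% of protein-coding genes. This value rests on 3 peaks in a stretch of only 8.79 kb. By number of peaks Pf4 was above 57.3% of genes, and by peaks within 50 kb of the TSS above 68.3%. The lowest densities were those of Treml1 at 3.15 and Gp6 at 1.85, below the median of all genes. Within 50 kb of the TSS, counting peaks assigned to any gene, the median was 9 for the 10 genes. It was 6 for all protein-coding genes and 7 for those with any peak.

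**Figure D2:**
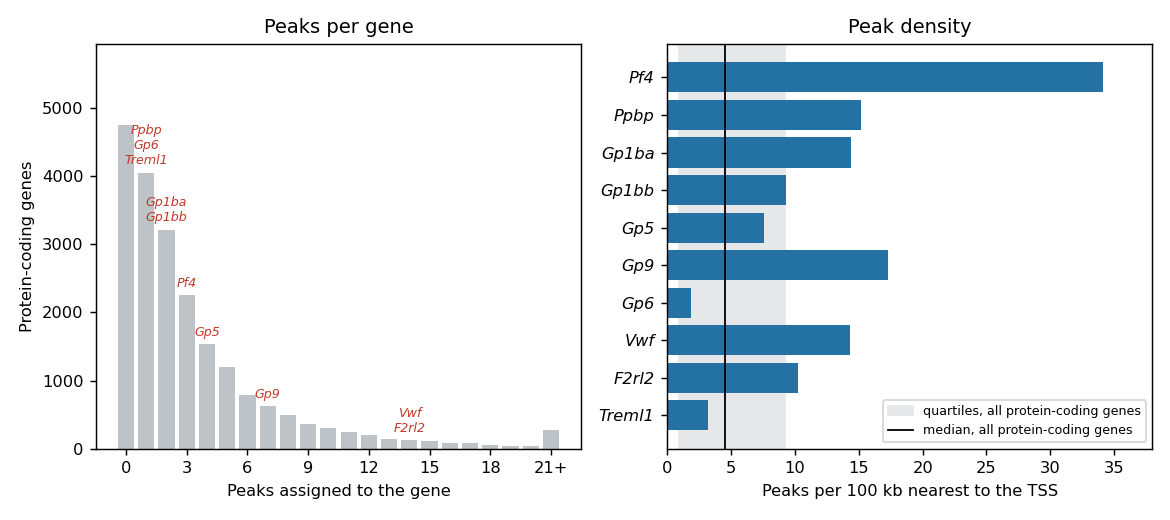
Left, number of protein-coding genes (bars, linear axis) by the number of peaks assigned to each, with the 10 megakaryocyte and platelet genes written above their bar. Right, peaks per 100 kb of the stretch nearest to each TSS for the 10 genes (bars), with the median of all protein-coding genes (line, 4.48) and their quartiles (grey band, 0.902 to 9.23). By number the 10 genes spread from 1 to 14, and by density 8 of them lie above the median line and Gp6 and Treml1 below it.

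Pf4 and Ppbp encode the platelet chemokines CXCL4 and CXCL7, which are stored in alpha granules. They are neighbours on the plus strand of chromosome 5, with TSSs 3917 bp apart, and they differed in their peaks. Pf4 had a promoter peak at chr5:90772217-90772715, centred 31 bp downstream of the TSS. It also had a peak at its transcription termination site (TTS), centred 1631 bp downstream (chr5:90773817-90774315), and an intergenic peak 3305 bp downstream (chr5:90775491-90775989). The centres of the 3 peaks were 1600 and 1674 bp apart. Ppbp had no peak over its body or TSS. Its only peak was intergenic, centred 2463 bp upstream (chr5:90765806-90766304). The promoter peak of Pf4 held 2 GATA and 2 ETS matches, and the Ppbp peak held an ETS, a RUNX, an NF-E2 and 6 E-box matches but no GATA match. It was the only one of the 10 genes with no GATA match in any of its peaks.

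Gp1ba, Gp1bb, Gp9 and Gp5 encode the 4 subunits of the GPIb-IX-V complex, the platelet receptor for von Willebrand factor, in which GPIb alpha carries the binding site. Of the 4 genes, 3 had a promoter peak. That of Gp1ba (chr11:70638782-70639280) was centred 91 bp upstream of the TSS and that of Gp5 (chr16:30310556-30311054) 24 bp upstream. The promoter peak of Gp9 (chr6:87777833-87778331) was centred 54 bp upstream of the TSS used by HOMER and 12 bp downstream of the RefSeq TSS, which lies 66 bp before it. Gp1bb was the exception. Its nearest peak (chr16:18621396-18621894) was centred 758 bp downstream of the TSS, in the 5′ untranslated part of an exon of the gene by RefSeq and at the TTS of a neighbouring transcript by HOMER.

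The non-promoter peaks of the complex were unequal in number, with 1 for Gp1ba, 2 for Gp1bb, 3 for Gp5 and 6 for Gp9. The Gp1ba peak (chr11:70629495-70629993), 9378 bp upstream, lay on a B3 SINE repeat and held none of the 6 consensus strings. The second Gp1bb peak (chr16:18617553-18618051) was intergenic and 4601 bp downstream of the TSS. At Gp5, 2 neighbouring peaks lay in coding exon 2 of 2, at 1096 and 1906 bp (chr16:30309436-30309934 and chr16:30308626-30309124), and the third lay beyond the gene at 6254 bp (chr16:30304278-30304776). The exon peaks had a G and C content of 55.1 and 69.7%, against 40.9% in the promoter peak of the same gene.

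Gp9 had 3 peaks on either side of its promoter. Upstream they were intergenic, at 14336, 7300 and 2062 bp. The centre of the last (chr6:87775825-87776323) was 57 bp from the start of a predicted RefSeq transcript of Gp9 at position 87776131, within the promoter range of that model. It held 2 GATA and 2 RUNX matches and no ETS match. The 3 downstream peaks lay 11289, 11915 and 12803 bp from the TSS, with centres 626 and 888 bp apart (chr6:87789176-87789674, chr6:87789802-87790300 and chr6:87790690-87791188). All 3 fell in exon 3 of 3 of Rab43, a gene for a small GTPase on the opposite strand, within its 3′ untranslated region, and HOMER placed them in its non-coding class. By the nearest RefSeq TSS they were still assigned to Gp9.

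Gp6 encodes glycoprotein VI, the signalling receptor for collagen. Its only peak was the promoter peak (chr7:4397507-4398005), centred 12 bp upstream of the TSS. No other peak was assigned to the gene, which is 29032 bp long. The nearest other peak of the list was centred 27221 bp away. Its side is not given here, and on the gene side that distance would still fall within Gp6. The promoter peak held a GATA match 144 bp upstream of the TSS and a KLF/SP match 70 bp downstream, with no ETS match. In 2 predicted RefSeq models that begin upstream of this TSS, the centre falls 94 and 95 bp inside the transcript.

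Vwf encodes von Willebrand factor, the adhesive ligand that megakaryocytes and endothelial cells make and that GPIb binds. Its promoter peak (chr6:125552694-125553192) was centred 5 bp upstream of the TSS, the closest of the 7. Another 3 peaks were upstream and intergenic, at 28718, 11890 and 4353 bp. The other 10 were within the gene, all in the first 51669 bp of its 133732 bp. No peak assigned to Vwf lay in the last 82062 bp before the gene end. The stretch nearest to the Vwf TSS was 97.9 kb, shorter than the gene. Peaks towards the gene end would thus be assigned to another gene, and they were not counted here. The 10 began in intron 3 of 51 at 8270 and 12148 bp. They then stood in intron 5 at 15647 bp, in intron 6 at 20447 and 31005 bp, in intron 10 at 42083 bp and in intron 12 at 47405 bp. The last 3, at 50493, 51081 and 51669 bp, were evenly spaced by 588 bp, with the first of them in coding exon 14 of 52 and the others in introns 14 and 15 (chr6:125603192-125603690, chr6:125603780-125604278 and chr6:125604368-125604866). The peak at 12148 bp (chr6:125564847-125565345) was centred 310 bp upstream of the start of a predicted transcript at position 125565406. The peak at 31005 bp (chr6:125583704-125584202) lay on an ORR1F long terminal repeat and held 2 GATA, 3 ETS and 2 RUNX matches, the closest GATA and ETS matches 6 bases apart.

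F2rl2 encodes PAR3, a receptor cut by thrombin that serves in mouse platelets as a cofactor for PAR4. All 14 of its peaks lay inside Iqgap2, a long gene for a scaffold protein of the cytoskeleton that runs on the opposite strand from 95627177 to 95891922 and holds F2rl2 in intron 13 of 35. The promoter peak (chr13:95696709-95697207) was centred 38 bp downstream of the F2rl2 TSS. Only 1 other peak lay in F2rl2 itself, in its intron 1 at 1141 bp (chr13:95697812-95698310). Upstream of F2rl2 were 5 peaks, at 25384, 17286, 11869, 10996 and 4601 bp. Downstream and beyond the gene were 7, at 15353, 16247, 23132, 49756, 68224, 82027 and 91831 bp. The list assigns them to F2rl2 because its TSS is the nearest, and a further 17 peaks, 2 of them promoter peaks, were nearest to the Iqgap2 TSS. A peak in this region cannot be told to belong to F2rl2 or Iqgap2 from position alone. A basal plus extension rule took the distances that the study used for target genes (2 kb upstream, 1 kb downstream, up to 1 Mb). It was run on RefSeq Select TSSs and left out the curated regulatory domains of the study's rule. Under it, the 5 upstream peaks were shared with F2r, which encodes the thrombin receptor PAR1, and those beyond 1 kb downstream with Iqgap2. F2r was named after these positions were seen.

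The 14 F2rl2 peaks varied in their matches. The peak 25384 bp upstream (chr13:95671287-95671785) had 4 GATA matches, with a RUNX match and no ETS match. The peak at 17286 bp upstream had 2 GATA matches and lay on a B3A SINE. Of the others outside the promoter, GATA matches were found only in those at 68224 and 91831 bp downstream, 1 in each. ETS matches were found in 11 of the 13 non-promoter peaks.

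Treml1 encodes TLT-1, a receptor of the alpha granule membrane that reaches the surface of activated platelets. Its single peak (chr17:48360488-48360986) was centred 821 bp downstream of the TSS, in intron 2 of 5 of each curated transcript. It held 1 GATA and 3 ETS matches, with 18 bases between the closest 2. Of the 3 genes without a promoter peak, Treml1 and Gp1bb had a peak within 1000 bp of the TSS and Ppbp did not, so 9 of the 10 genes had a peak within 1000 bp, against 58.1% of protein-coding genes.

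The 7 promoter peaks resembled each other in base composition. The ratio of observed to expected CpG dinucleotides had a median of 0.11, from 0.00 in Gp5 to 0.29 in Pf4, where all promoter peaks of the list had a median of 0.78. All 7 were under 0.6, compared with 24.3% of the promoter peaks of the list. Their G and C content had a median of 50.1% (40.9 to 56.1%), against 63.3%. They were thus CpG-poor promoters, and for this reason motif shares are given also for the 3205 promoter peaks of the list under 0.6. The non-promoter peaks did not stand apart in the same way, with a median ratio of 0.22 for the 10 genes and for the list, and a G and C content of 48.7 and 47.7%.

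A GATA match was found in 6 of the 7 promoter peaks (85.7%, interval 48.7 to 97.4%), against 13.5% of the list and 25.7% of its CpG-poor part. The exception was Gp9, which had GATAA only. With GATAA as the string, 7 of 7 held a match, against 21.5% of the list and 35% of its CpG-poor part. ETS matches were also found in 6 of 7, with Gp6 the exception, but they were common in promoter peaks of the list (68.9%). Both were present in 5 of 7 (71.4%, interval 35.9 to 91.8%), against 9.41% of the list and 18.2% of its CpG-poor part, and both shares lie below the interval. For the other strings the interval of the 7 peaks included the share of the list. RUNX matches were found in 3 of 7 (42.9%, interval 15.8 to 75%, list 19.6%), NF-E2 matches in 1 of 7 (list 4.97%), E-boxes in 5 of 7 (list 63.5%) and KLF/SP matches in 2 of 7 (list 29.4%). In the CpG-poor part the shares were 31.1% for RUNX, 8.77% for NF-E2, 76.8% for E-boxes and 30.3% for KLF/SP, each within the interval of the 7. No E-box lay in the central 200 bp of any of the 7, and the interval of 0 of 7 runs up to 35.4%. That interval includes the 31.6% of the list but not the 44.8% of its CpG-poor part, and the difference was not tested.

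In these 5 promoters the GATA and ETS matches were near each other and near the TSS. In F2rl2 they abutted with 0 bases between them, in the order ETS then GATA, at 101 and 95 bp upstream and on the strand of the gene, as the capitals of its sequence above show. A KLF/SP match read on the other strand overlaps this ETS match. In Vwf, 22 bases separated a GATA match 69 bp upstream from an ETS match 41 bp upstream. In Gp5 the distance was 23 bases, with GATA 77 bp and ETS 48 bp upstream and another GATA match 93 bp upstream. In Gp1ba it was 29 bases, with GATA 51 bp and ETS 16 bp upstream and another GATA match 104 bp upstream. Vwf, Gp5 and Gp1ba shared the arrangement of GATA farther from the TSS and ETS nearer to it, both read on the strand opposite to the gene. In Pf4 the matches lay on either side of the TSS, with ETS 9 bp upstream, GATA 36 bp downstream and 39 bases between them. Pairs with at most 50 bases between them, a limit set after these distances were seen, occurred in 3.14% of promoter peaks of the list and in 6.9% of the CpG-poor ones. Those shares are of all promoter peaks, with both matches or not. Of the promoter peaks of the list with both matches, 414 of 1239 had such a pair, and 221 of 583 of the CpG-poor ones. Close spacing was thus common once both matches were present.

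**Figure D3:**
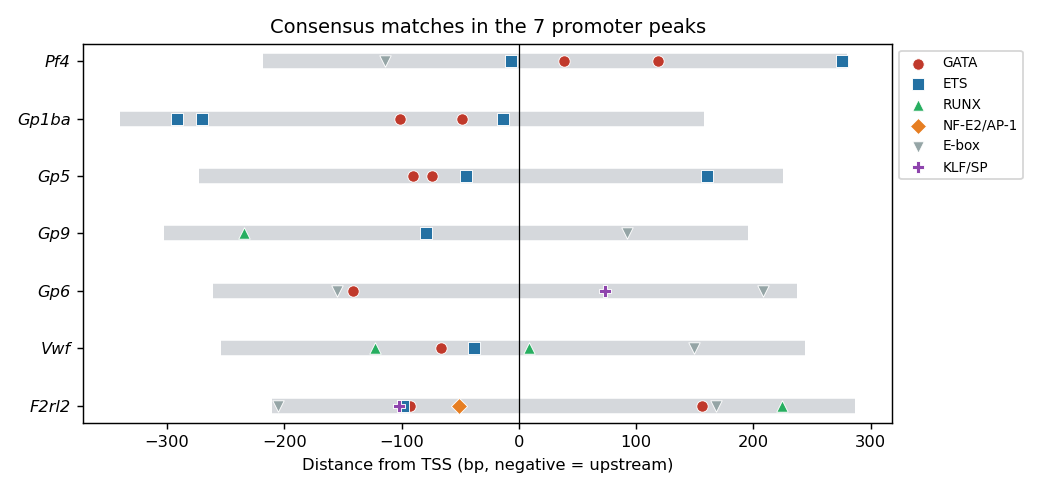
Consensus matches (symbols) in the 7 promoter peaks (grey bars, 499 bp each), by distance from the TSS in bp, negative being upstream. GATA and ETS matches stand side by side upstream of the TSS in Gp1ba, Gp5, Vwf and F2rl2 and on either side of it in Pf4, while Gp9 has an ETS match without GATA and Gp6 a GATA match without ETS.

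The same strings were counted in the RefSeq promoter windows, 250 bases before to 50 after the TSS, whether or not a peak lay there. Of the 10 genes, 9 had an entry, and Vwf did not. GATA matches were found in 5 of the 6 with a promoter peak and in 0 of the 3 without one, Ppbp, Gp1bb and Treml1. Of all 16471 windows matched to a protein-coding gene, 15.6% held a GATA match and 6.76% both GATA and ETS. The 3 genes without a promoter peak also differed from each other, since the Gp1bb window had 2 ETS, 2 KLF/SP and 2 E-box matches and those of Ppbp and Treml1 had 1 E-box each and no other match. With 9 windows, these counts are a description.

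The 42 non-promoter peaks were closer to the list in sequence. GATA matches occurred in 16 of 42 (38.1%, interval 25 to 53.2%, list 41.5%) and ETS matches in 32 (76.2%, 61.5 to 86.5%, list 69%). Both occurred in 14 (33.3%, 21 to 48.4%), against 28.3% of the non-promoter peaks of the list. RUNX matches (40.5%, list 42.5%), NF-E2 matches (14.3%, list 11.8%), E-boxes (81%, list 77.1%) and KLF/SP matches (11.9%, list 19.9%) were also within the counting error of the list. The shorter string GATAA was found in 23 of 42 (54.8%, 39.9 to 68.8%), against 50.4% of the list. GATA and ETS matches at most 50 bases apart were found in 7 of 42 (16.7%, 8.32 to 30.6%, list 10.9%). The closest were 6 bases apart, in the Gp1bb peak 4601 bp downstream and in the Vwf peak at 31005 bp. Over all peaks, 9 of the 10 genes had at least 1 GATA match, as did 49.3% of protein-coding genes and 63.7% of those with a peak. Genes with more peaks had more chances of a match.

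**Figure D4:**
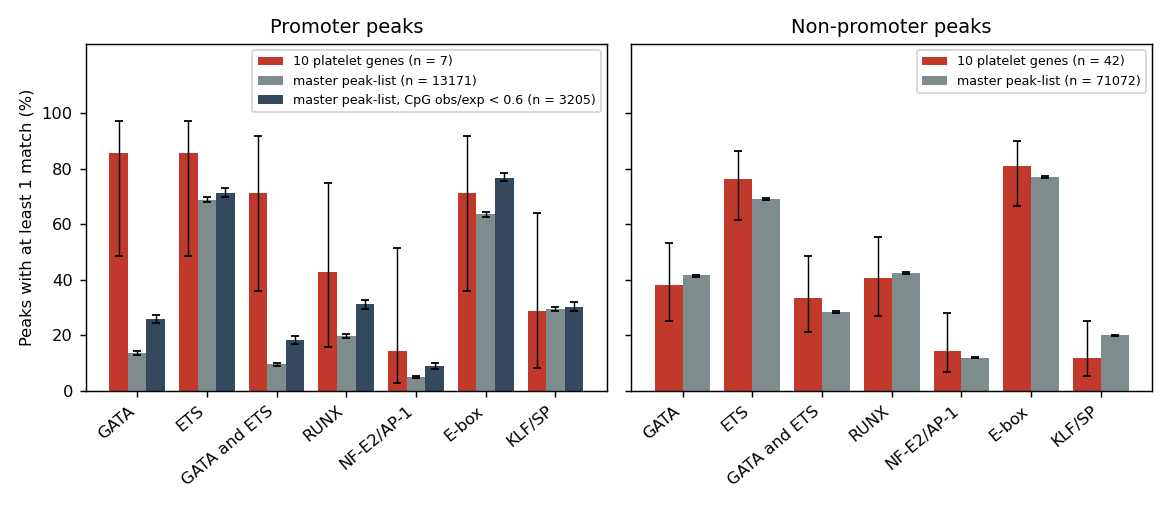
Share of peaks with at least 1 match (bars, percent) for the peaks of the 10 genes and for the master peak-list, in promoter peaks (left, with the CpG-poor part of the list as a further bar) and non-promoter peaks (right). Error bars are 95% Wilson intervals, for counting error only. In promoter peaks, GATA with or without ETS (85.7 against 13.5%) and GATA with ETS (71.4 against 9.41%) lie above both bars of the list beyond their intervals. In non-promoter peaks each interval of the 10 genes includes the share of the list.

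In position, the non-promoter peaks of the 10 genes had a median distance of 12031 bp from the TSS, against 22261 bp in the list. Within 10 kb were 38.1% (interval 25 to 53.2%), an interval that includes the 28.9% of the list. Introns held 23 of them (54.8%, interval 39.9 to 68.8%, list 48%) and intergenic sequence 11 (26.2%, 15.3 to 41.1%, list 44.6%). Exons held 3 and the TTS class 2, while the non-coding class of HOMER held 3 (7.14%, 2.46 to 19%, list 0.421%), all in Rab43. Repeats held 5 (11.9%, list 17.9%). Upstream of the TSS were 13 (31%, 19.1 to 46%, list 41.7%). These 42 peaks are not independent, since all but 16 of them belong to Vwf and F2rl2, which gave most of the intron peaks. For all 42, the nearest RefSeq TSS was that of the assigned gene, as for 80.7% of non-promoter peaks of the list. Peaks also came in runs, and 12 of the 49 (24.5%, 14.6 to 38.1%) had another peak centred within 1000 bp, compared with 13.2% of the list (13 to 13.5%). These were the exon pair of Gp5, the Rab43 run of Gp9, the exon 14 run of Vwf and 2 pairs of F2rl2. A neighbour counts for both peaks of a pair, so the 12 are not independent and their interval is too narrow. The difference from the list was not tested.

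A further 38 genes of platelet function were compared with the 10. Of these, 34 had a promoter peak (89.5%, interval 75.9 to 95.8%), against the same 54.9% of all protein-coding genes. By role the counts were 12 of 15 receptors, 7 of 8 genes for granule contents, 8 of 8 genes of the cytoskeleton and signalling and 7 of 7 transcription factors. The 4 without one were P2ry12, the ADP receptor blocked by antiplatelet drugs, Clec1b, which encodes the podoplanin receptor CLEC-2, Mpig6b, which encodes the inhibitory receptor G6b-B, and Pdgfb, a platelet-derived growth factor chain. Their nearest peaks were centred 680, 5309, 898 and 8618 bp from the RefSeq TSS, and those of Mpig6b and Pdgfb were assigned by HOMER to the noncoding genes G6bos and Mir7213. The genes with the most peaks were all transcription factor genes of the lineage, Fli1 with 38, Runx1 with 35 and Zfpm1, which encodes the GATA1 cofactor FOG1, with 27. The median was 6 peaks, against 2.5 for the 10 genes. The stretch nearest to the TSS was also longer, with a median of 60.3 kb against 36.1 kb. By density the 2 lists were close, with medians of 11.7 and 12.3 peaks per 100 kb.

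The combination of GATA and ETS matches was counted in other promoter peaks in the same way. It was found in 10 of 40 promoter peaks of the other platelet genes (25%, interval 14.2 to 40.2%), in 4 of 12 of 10 erythroid membrane genes (33.3%, 13.8 to 60.9%) and in 2 of 6 of 10 neutrophil granule genes (33.3%, 9.68 to 70%). The interval of the 7 promoter peaks, 35.9 to 91.8%, overlaps all 3, and the difference was not tested. The promoters also differed in composition, with 62.5% of those of the other platelet genes under a CpG ratio of 0.6, 75% of the erythroid and 100% of the granule ones. GATA matches, with or without an ETS match, were found in 12 of 40 promoter peaks of the other platelet genes (30%, interval 18.1 to 45.4%). The same count was 7 of 12 in erythroid (58.3%, 32 to 80.7%) and 2 of 6 in granule promoter peaks (33.3%, 9.68 to 70%). The interval of the 7 promoter peaks for GATA, 48.7 to 97.4%, overlaps those of the erythroid and granule genes. It does not overlap that of the other platelet genes, and these differences were not tested. Promoter peaks were found at 10 of 10 erythroid genes (median 4 peaks) and at 6 of 10 granule genes (median 2.5 peaks, most in Mpo, Ngp and Mmp9 with 4 each). The median density was 7.24 peaks per 100 kb for the erythroid and 13.1 for the granule genes, so the 12.3 of the 10 genes was not particular to them.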

How the data were processed

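ATAC-seq of 12 samples (2 replicates of 6 cell types) was aligned to mm10 by the authors, who used the ENCODE pipeline for this assay. They concatenated the peak-lists of the cell types, kept non-overlapping peaks with chromVAR and annotated them with HOMER 4.10.2 (version per the submitters' processing notes). The deposited values used here are positions and distances to the TSS in bp, without normalization. Every peak is 499 bp wide, the deposited score is 0 throughout and was not used, and 0 columns hold values per sample. Depth is therefore unknown, no sample entered singly, and no test between samples or cell types was made.

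Genes were matched by Entrez ID, since 143 peaks carry gene names turned into dates. Distances and classes are those of HOMER. Transcripts, RefSeq Select TSSs and sequence came from RefSeq release 108 of GRCm38.p6. Motifs were searched as exact strings, and the search found all 200 sites planted per motif for 7 motifs in simulated sequence. Shares have 95% Wilson intervals. In printed sequence, stretches of annotated exon over 30 bases were left out.

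The 10 genes, the comparison lists and the motifs were chosen with earlier results of these data known. The named genes were all 10 with every peak, the genes their peaks lie in, the other platelet genes without a promoter peak or with the 3 highest numbers of peaks, and the leading gene of the erythroid and granule lists, of which the erythroid one is not reported here. Sequences of Gp9, Gp6, Treml1 and the Pf4 site, and the CpG-poor and 50-base comparisons, were added after the data were seen. Alternatives concerned the promoter definition, the gene assigned to a peak, the motif window and the GATA string. The software was matplotlib 3.10.9, pysam 0.24.0, pandas 2.3.3 and numpy 2.4.6 under Python 3.11.15.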

Additional observations from a re-analysis of the deposited data

How the results depend on the processing

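Of the values reported for the 10 genes and for the list, 4 moved beyond their limit. With the basal plus extension rule in place of the nearest TSS, the non-promoter peaks of the 10 genes numbered 70 in place of 42 and the median per gene was 4 in place of 2.5, because neighbouring genes then share peaks. In the central 200 bp, 9.52% of their non-promoter peaks held both a GATA and an ETS match, against 33.3% in the whole peak, and the list moved alike, from 28.3 to 9.5%. With the CpG-poor promoter peaks as the comparison, chosen after seeing the data, the share of the list with both matches was 18.2% in place of 9.41%. Genes with a promoter peak numbered 7 of the 10 under every definition tried except a centre within 1000 bp, which gave 9 (58.1% of protein-coding genes). Promoter peaks with both matches made up 57.1% in the central 200 bp (list 2.18%, CpG-poor part 5.4%), 85.7% with GATAA (list 14.9%, CpG-poor part 24.8%) and 71.4% in the whole peak. Of the 10 genes, those with any GATA match numbered 6 in the central 200 bp and 9 otherwise. Other platelet genes with a promoter peak ran from 24 (within 100 bp) to 35 of 38. Shares of all protein-coding genes within 100 bp, or with a GATA match in the central 200 bp, are not given here. The counts at those settings therefore describe the settings only.

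No paired analysis was possible because the list is pooled and has no columns per replicate, and leaving out a replicate was not possible for the same reason. A stricter score was not applied, since the score is 0 in every peak. With 7 promoter peaks the intervals are wide, and the pooled list does not give the cell type, height or depth of a peak.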
